A study of Drosophila melanogaster with 3 samples.

Results

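The 4 genes described here are chinmo, Imp, Syp and lin-28, taken as a group of neuronal temporal genes from the 13945 protein-coding genes on the 6 main chromosomes of the fly. They were selected on the measured peak lists: a peak summit was given to a gene when a transcription start site of that gene was the nearest one of any protein-coding gene, or when the summit lay in the gene body or within 2 kb of it. The assay was ChIP-seq, sequencing of DNA recovered with a protein, for the homeodomain transcription factor Dbx. All 3 biological replicates were whole Drosophila melanogaster embryos, 8 to 24 h old, of a strain carrying a Dbx-eGFP fusion transgene, and the chromatin, sonicated to 200 to 800 bp, was precipitated with an antibody to GFP according to the sample descriptions. The antibody field of the same labels names Dbx instead, and the files do not settle which is right. There was 1 group, with no second genotype, treatment or age, and no control library was analysed here. The labels do not name the sequences that drive the transgene. Because whole embryos were used, strong binding in few cells and weak binding in many cannot be told apart, and no value below belongs to neurons or neuroblasts as such. With no control library, the part of a peak that arises without the fusion protein was not tested.

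In the fly brain, neural stem cells called neuroblasts make different neurons at different ages, and the age of the neuroblast is read out partly through RNA-binding proteins. Imp, an RNA-binding protein of the IGF2BP family, is high in young larval neuroblasts, and Syp, an RNA-binding protein related to hnRNP Q, is high in old ones. Both act on the transcript of chinmo, which encodes a BTB zinc-finger transcription factor of early-born neurons: Imp favours Chinmo protein and Syp lowers it. The let-7 microRNA also lowers Chinmo, and Lin-28 is an RNA-binding protein known across animals for limiting let-7 maturation. Dbx belongs to a homeodomain family known for roles in interneurons and their progenitors. These roles are background and were not measured here.

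The summits that recurred in every replicate at these genes lay in the DNA upstream of chinmo, and 5 sites there carry most of what follows. Each window below, read from the dm6 RefSeq genome, is 121 bp centred on a summit of the conservative list, one of the authors' lists made for the series as a whole. All 5 windows are intergenic, and capitals mark TAATTA, a homeodomain core word that reads the same on both strands.
chinmo site 18412 bp upstream, chr2L:1632786-1632906, plus strand: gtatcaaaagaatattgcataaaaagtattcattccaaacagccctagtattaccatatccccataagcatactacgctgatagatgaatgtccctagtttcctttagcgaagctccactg
chinmo site 16976 bp upstream, chr2L:1634222-1634342, plus strand: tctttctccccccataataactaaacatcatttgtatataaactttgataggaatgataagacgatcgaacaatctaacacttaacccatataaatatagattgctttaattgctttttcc
chinmo site 12456 bp upstream, chr2L:1638742-1638862, plus strand: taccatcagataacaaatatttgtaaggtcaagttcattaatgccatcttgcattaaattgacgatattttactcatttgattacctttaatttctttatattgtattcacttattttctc
chinmo site 7768 bp upstream, chr2L:1643430-1643550, plus strand: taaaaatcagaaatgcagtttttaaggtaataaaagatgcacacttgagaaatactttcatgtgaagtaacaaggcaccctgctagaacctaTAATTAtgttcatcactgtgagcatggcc
chinmo site 1538 bp upstream, chr2L:1649660-1649780, plus strand: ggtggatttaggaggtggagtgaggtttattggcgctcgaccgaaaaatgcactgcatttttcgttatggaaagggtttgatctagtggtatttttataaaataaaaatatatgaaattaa
TAATTA fell in 1 of the 5 printed windows, that of the site 7768 bp upstream. Between pairs of windows reaching 100 bp to either side of the 5 summits, the longest identical run, on either strand, was 8 to 12 bp. The run of 12 bp was shared by the sites 7768 and 1538 bp upstream, and the other pairs shared 8 or 9 bp. The windows were thus not exact copies of one another. No alignment was made, so copies that have diverged were not looked for.

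The lists hold peaks that passed an irreproducible discovery rate (IDR, a measure of how poorly a peak's rank repeats between sets of reads, low where it repeats well) of 0.01. The conservative list held 4943 peaks, and the lists of replicates 1, 2 and 3 held 3701, 3353 and 2519. Every signal below is the authors' peak value, whose normalization is not given in the sources used here, so it is compared within a list and by rank. Read depth is unknown, and the lists of the replicates differ in length. A conservative peak is called recurrent here where it overlapped a peak in every one of the 3 replicate lists, as 1789 (36.2%) did. The conservative list was made from the same replicates, so recurrence is not independent of it.

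chinmo received 10 summits in the conservative list, where 40.8% of protein-coding genes received at least 1. It received 10 in replicate 1, 6 in replicate 2 and 5 in replicate 3, a mean of 7.0 ± 2.65 (SD, n = 3), in lists where 33.5%, 32.5% and 26.5% of genes received at least 1. Imp received 0 summits in the conservative list and 0, 1 and 0 in the 3 replicates. Syp and lin-28 received 0 in all 4 lists. The genes were chosen with these counts known, so the counts are a description without a test.

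chinmo, FBgn0086758, lies on chromosome 2L at 1651258 to 1704682 on the plus strand, a body of 53.4 kb with 2 annotated start sites. Its first start site follows 37.1 kb without a protein-coding gene, which ends upstream at RFeSP, the gene of the Rieske iron-sulfur protein of the mitochondrial respiratory chain. RFeSP lies on the minus strand, so this interval is upstream of both genes. Of the 10 conservative summits, 6 were intergenic and upstream, 1 lay at the promoter and 3 lay in the first 5 kb of the body. Of these 10, the 5 intergenic sites printed above were recurrent and the other 5 summits were not. The second start site, 16589 bp into the gene, had no peak past the threshold in the conservative or replicate lists. Farther into the body than these conservative sites, replicate 1 had a summit at position 1657285 and the conservative list had none.

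**Figure D1:**
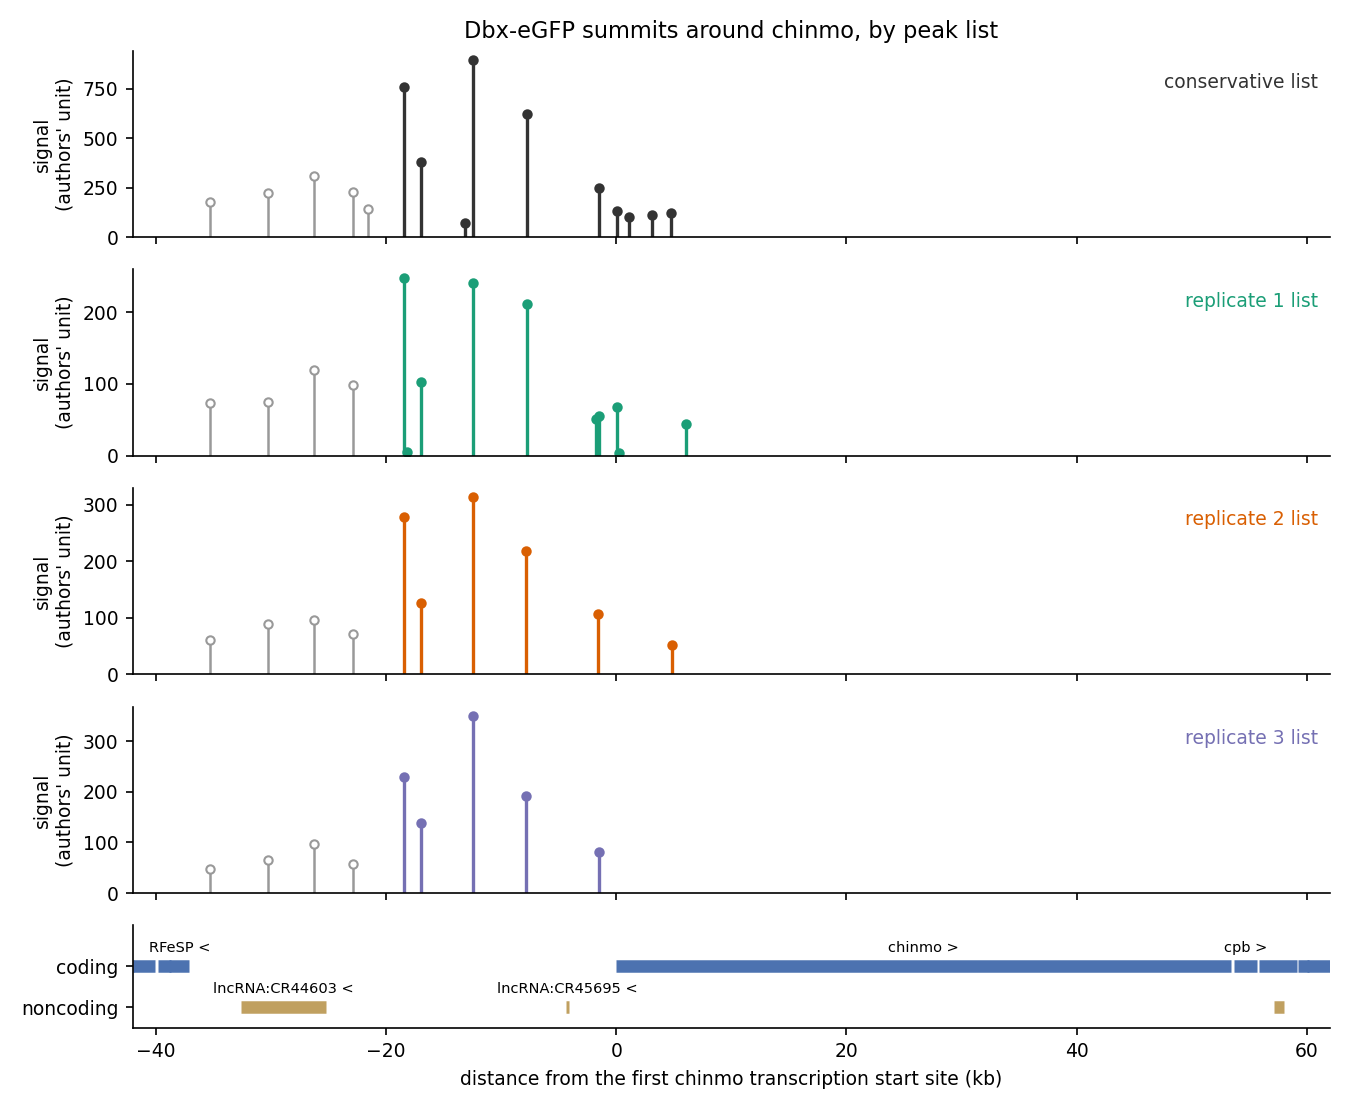
Peak signal (vertical axes, the authors' unit, a separate scale for each list) against distance from the first chinmo start site in kb. Filled points are the summits given to chinmo and open grey points are conservative sites nearer to RFeSP. Blue and tan bars are coding and noncoding genes, with arrowheads for their strand, and the tallest summits of all 4 lists stand upstream of the gene body.

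The site 12456 bp upstream had the highest conservative signal at chinmo, 897.1, rank 70 of 4943. In replicates 1, 2 and 3 its signal was 240, 314 and 351, at ranks 117, 75 and 50 of the lists. Its replicate summits lay within 38 bp of each other.

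The site 18412 bp upstream, farthest from the gene, had a conservative signal of 757.7, rank 108. Its replicate signals were 247, 278 and 229, at ranks 112, 102 and 123. It was thus the stronger of the top pair in replicate 1 and the weaker in replicates 2 and 3. Its 3 replicate summits fell within 8 bp, the tightest of the 5 sites. This site is also the one whose place depends most on the rule: it lay 18412 bp from the chinmo start site and 18686 bp from that of RFeSP, 137 bp inside the boundary. The nearest conservative summit on the other side of the boundary lay 15551 bp from the RFeSP start site and 21547 bp from that of chinmo. It had a signal of 141.8 at rank 2323 and overlapped no replicate peak past the threshold, its ranked peaks in replicates 1, 2 and 3 having IDRs of 0.315, 0.0152 and 0.0150.

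The site 7768 bp upstream, the one with TAATTA, had a conservative signal of 622.0, rank 167. Its replicate signals were 211, 217 and 192, at ranks 156, 180 and 185. It came below the pair above and before the other sites in every replicate. Its replicate summits spread over 70 bp, the widest of the 5.

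The remaining recurrent sites were weaker. The site 16976 bp upstream had a conservative signal of 378.6, rank 443, and replicate signals of 103, 127 and 138. It lay 1436 bp from the strong site at the far end, and 3 of the 5 sites were stronger in each replicate. The site 1538 bp upstream had a conservative signal of 250.2, rank 942. Its replicate signals were 54.9, 107 and 80.6, at ranks 2210, 733 and 879. It was the lowest of the 5 in each replicate, and in replicate 1 it stood in the lower part of the list, with an IDR of 0.00462.

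As a share of the strongest chinmo site of the same replicate, the sites 12456, 18412, 7768, 16976 and 1538 bp upstream averaged 99.1 ± 1.62%, 84.6 ± 17.7%, 69.7 ± 15.4%, 40.5 ± 1.2% and 26.4 ± 6.65% (SD, n = 3). The strongest site of each replicate is 100% by definition, which holds down the SD of the site 12456 bp upstream. Its signals were 240, 314 and 351. The top pair changed order between replicates, so their order is not settled. The site 7768 bp upstream was below the farthest site in all 3 replicates, though its mean lay within 1 SD of it. The ranges of the 2 lowest sites, 39.3 to 41.7% and 22.2 to 34.1%, overlapped neither each other nor the ranges of the 3 highest, which began at 54.7%. Among all 688 intergenic conservative summits, of which 244 (35.5%) were recurrent, the 5 sites stood at places 12, 17, 23, 53 and 114 by signal.

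**Figure D2:**
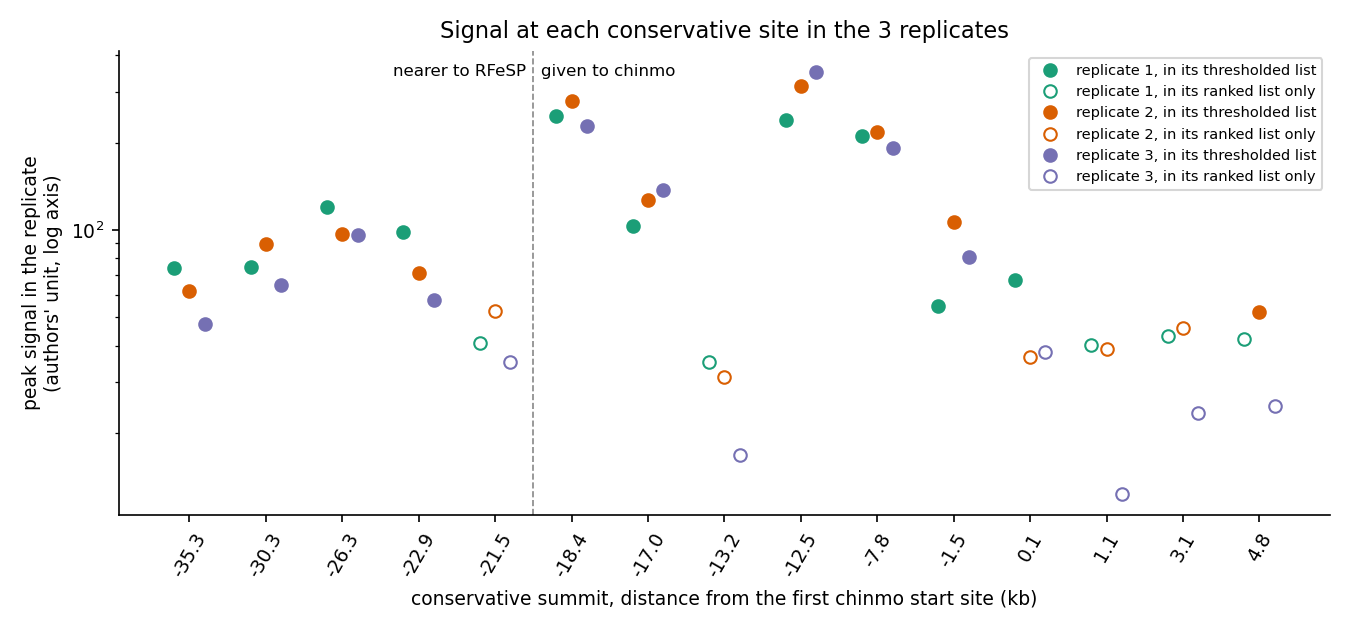
Signal in each replicate (vertical log axis, the authors' unit) at every conservative site upstream of or in chinmo, ordered by distance from the first start site in kb. Points are single replicates, filled where the peak passed the replicate's IDR threshold and open where it stood in the ranked list alone. All 5 recurrent chinmo sites and the 4 recurrent sites nearer to RFeSP are filled in all 3 replicates, and the sites in the gene body mostly are not.

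The promoter peak of chinmo passed the threshold in the conservative list, with an IDR of 0.00185, and in replicate 1. It missed the threshold in replicates 2 and 3. In the authors' other series-level lists it passed, with IDRs from 0.000429 to 0.00476. Its conservative summit, 78 bp past the first start site, had a signal of 132.9, rank 2572. In replicate 1 it passed with a signal of 67.5 and an IDR of 0.000851. In replicates 2 and 3 it was in the ranked lists alone, with signals of 36.5 and 37.9 and IDRs of 0.0252 and 0.0118. The promoter peak thus lay below all 5 upstream sites in the conservative list, but above the site 1538 bp upstream in replicate 1.

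The 3 intronic summits, 1089, 3096 and 4788 bp past the start site, had conservative signals of 102.9, 110.5 and 123.5. The last of them passed in replicate 2, with a signal of 52.1 and an IDR of 0.00273, and the others passed in no replicate. The weakest conservative summit, 13155 bp upstream, had a signal of 70.51 at rank 4545 and passed in no replicate. It lay 699 bp from the strongest site. All 5 of the non-recurrent peaks were 400 bp wide, a width shared by 80.2% of conservative peaks, while the 5 recurrent ones were 187 to 385 bp wide.

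The higher count of replicate 1 came partly from sites listed as more than 1 peak. At the site 1538 bp upstream it listed a second peak, with its summit at 1649469 and a signal of 50.7, where replicates 2 and 3 each listed 1 peak that overlaps it. It also listed 2 weak peaks, with signals of 5.28 and 3.82, that overlap stronger peaks of the same list at the farthest site and at the promoter. The promoter and the summit at 1657285, with a signal of 43.9, passed in replicate 1 and not in replicates 2 or 3.

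The interval between RFeSP and chinmo held 11 conservative summits, 9 of them recurrent. The 4 recurrent sites on the RFeSP side lay 35263, 30287, 26300 and 22896 bp from the chinmo start site, with conservative signals of 176.8, 224.8, 309.4 and 229.5. In replicate 1 their signals ran from 74.1 to 120 with a median of 86.3, against a median of 211 for the 5 chinmo sites. In replicate 2 they ran from 61.5 to 96.6 with a median of 80.5, against 217. In replicate 3 they ran from 47.4 to 96.2 with a median of 61.1, against 192. The sides overlapped in range in replicate 1 through the chinmo sites 1538 and 16976 bp upstream, and in replicate 3 through the one 1538 bp upstream. They did not overlap in replicate 2. The sites 30287 and 26300 bp upstream lay in the annotated noncoding RNA gene lncRNA:CR44603. Another, lncRNA:CR45695, starts between the sites 7768 and 1538 bp upstream, and with start sites of every gene class counted, 4 of the 5 recurrent chinmo sites were nearer to one of these noncoding genes than to chinmo. No expression was measured, so nearness alone ties a site to a gene.

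The annotation holds 10424 intervals between protein-coding genes, and 192 of them held a recurrent intergenic summit. The 9 of the interval between RFeSP and chinmo, 4 of them nearer to RFeSP, were the highest count, followed by 5. Of the 203 intervals at least as long, the median held 0 and the highest of the others held 4. This set of intervals was compared after the values at chinmo were seen.

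**Figure D3:**
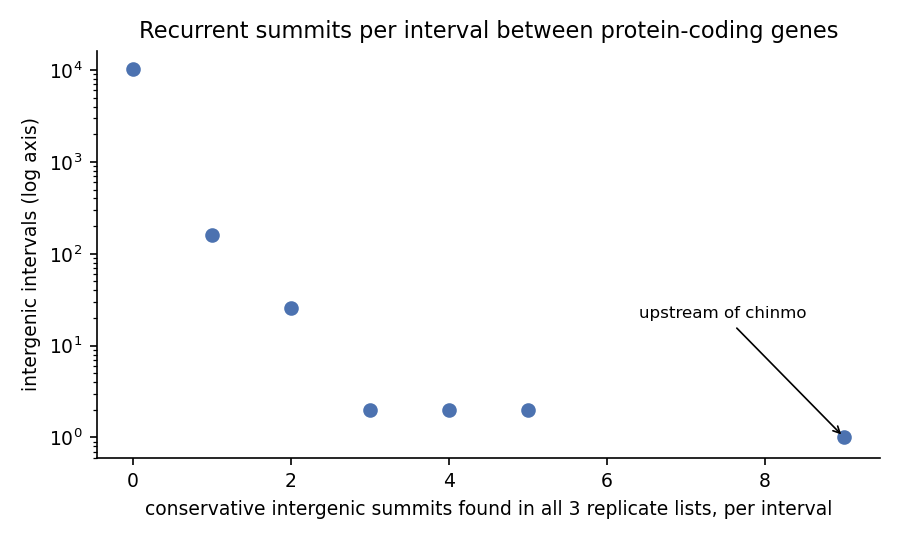
Number of intervals between neighbouring protein-coding genes (vertical log axis) against the number of recurrent intergenic summits in each. The interval upstream of chinmo, which is also upstream of RFeSP, stands alone at 9, and the next highest hold 5. Of the 9 summits, 4 are nearer to RFeSP.

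Counted per gene, 16 of 13945 genes had at least the 10 conservative summits of chinmo, up to 18 at Eip75B, an ecdysone-induced nuclear receptor gene, and sbb, a gene of a nuclear protein, both named for their counts. At least 5 recurrent summits were found at 13 genes. With intergenic recurrent summits alone, the highest count was 5, at chinmo and at RYBP, a gene of a Polycomb-associated protein that was named after its value was seen. Gene length moved with the count: of the 281 genes at least as long as chinmo, 183 (65.1%) had a summit, with a median of 1.0, and 12 had at least 10. The part of length in the counts was not tested.

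The genes with the most similar counts over the 4 lists, by the sum of absolute differences, were HmgD and Snoo at 4, Hr4 at 5, and dnc and simj at 6. HmgD, which encodes a chromatin protein of the high-mobility group, had 10, 7, 6 and 6 summits in the conservative list and replicates 1, 2 and 3. dnc, which encodes a cAMP phosphodiesterase known for its part in learning, had 7, 8, 5 and 5. Their sites were placed differently from those of chinmo: all 5 genes had 0 intergenic conservative summits, and 5 to 9 of their summits lay in introns.

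Imp, FBgn0285926, lies on chromosome X at 10787869 to 10824277 on the minus strand, with 5 start sites. Its 1 summit, in replicate 2, lay past the downstream end of the gene and 1 bp from the start site shared by sesB and Ant2, the adenine nucleotide translocase genes. Its signal was 42.2, rank 3042 of 3353, with an IDR of 0.00429. The matching peak in the ranked conservative list had a signal of 67.9 and an IDR of 0.0124, just outside the threshold. At the start sites of Imp itself no peak passed. The strongest, at position 10815636 and 1 bp from a start site, had a conservative signal of 76.6 with an IDR of 0.0210, and replicate signals of 38.9, 26.3 and 21.3 within 250 bp of that start site.

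Syp, FBgn0038826, lies on chromosome 3R at 20756729 to 20810726 on the plus strand, and at 54.0 kb is about as long as chinmo. Its strongest conservative peak, at 20762336, had a signal of 89.0 and an IDR of 0.0262. It lay 33 bp from the start site of CG31195, a gene within Syp, and 5607 bp from the nearest start site of Syp. Peaks there had replicate signals of 34.7, 25.6 and 30.6 with IDRs of 0.287, 0.514 and 0.798. This peak passed in the authors' longest list, with an IDR of 0.00373. Within 250 bp of the 5 start sites of Syp, the ranked lists held no peak in the conservative list or in replicates 1 and 2, and 1 in replicate 3, with a signal of 14.6 and an IDR of 0.916. Of the 277 genes at least as long as Syp, 180 (65.0%) had a conservative summit.

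lin-28, FBgn0035626, lies on chromosome 3L at 5654681 to 5657384 on the plus strand, a short gene of 2.70 kb with 1 start site. Its strongest conservative peak, 74 bp from that start site, had a signal of 75.2 and an IDR of 0.316. Within 250 bp of the start site replicate 1 listed no peak, and replicates 2 and 3 had signals of 15.4 and 18.0. The strongest ranked peaks given to lin-28 in replicates 1, 2 and 3, wherever they lay, had signals of 27.9, 24.5 and 25.3, and none passed. The 3 RNA-binding genes thus had ranked peaks that missed the threshold. Such peaks are common: the ranked lists held 97148 peaks for the conservative list and 78411, 99500 and 86520 for replicates 1, 2 and 3. Values under the threshold show neither that Dbx was absent at these genes nor that it was present.

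**Figure D4:**
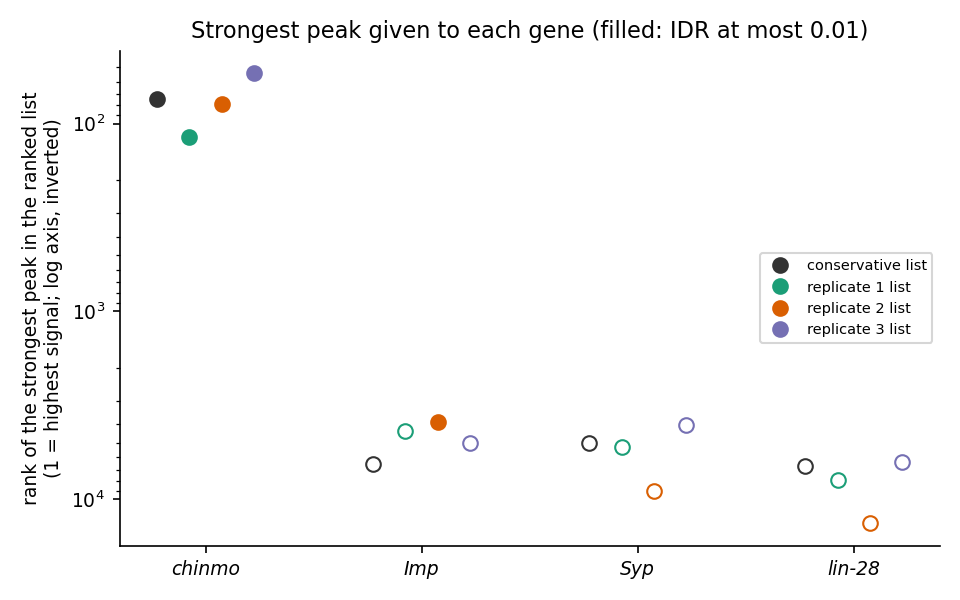
Rank of the strongest peak given to each of the 4 genes in the ranked form of each list (vertical log axis, inverted, 1 being the highest signal), filled where its IDR was at most 0.01. The ranks at chinmo run from 54 to 118, and those at Imp, Syp and lin-28 from 3860 to 13423. These ranked lists hold 78411 to 99500 peaks.

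Without regard to gene length, the share of other temporal patterning genes with a summit was near that of all genes. Of 30 such genes, 11 (36.7%) had a conservative summit and 8 a recurrent one, beside 40.8% and 20.4% of all protein-coding genes. In replicates 1, 2 and 3 the share was 36.7%, 26.7% and 26.7%. brat, which encodes an RNA-binding growth suppressor of neuroblast daughters, had 7 conservative summits, the best an intronic one with a signal of 524.3 at rank 244. EcR, the ecdysone receptor gene, had 4, with a best signal of 413.1 at rank 381. hth and mamo, both transcription factor genes, had intronic recurrent sites with signals of 320.8 and 299.2. The recurrent sites of babo, an activin receptor gene, and br, a zinc-finger transcription factor gene, had signals of 294.7 and 262.8 but were nearest to start sites of CG8229 and Mur2B. The genes of the embryonic neuroblast series hb, Kr, nub, pdm2 and cas had 0 summits in all 4 lists, while grh, which follows them in that series, had 3 conservative summits, 1, 3 and 1 in replicates 1, 2 and 3, and a recurrent intronic site with a signal of 177.5. The neuroblast genes pros, dpn and ase had 0 in all 4 lists, and these 9 genes are named here after their values were seen. The let-7 complex gene, a noncoding gene that could be given summits by its body and flank alone, had 0 too. A count of 0 was the usual one: 19 of the 30 temporal genes had no conservative summit, as had 8260 of the 13945 protein-coding genes. Whether the zeros are a trait of the series was not tested. Of the temporal genes, those with a conservative summit had a median length of 44.0 kb and those without 5.81 kb. The 29 coding genes of the list had a median of 17.2 kb, beside 2.17 kb for all protein-coding genes. Longer genes had a summit more often, as given below, and no share was taken at like length.

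Of 30 other neural RNA-binding genes, 23 (76.7%) had a conservative summit and 17 a recurrent one, beside 40.8% and 20.4% of all protein-coding genes. In replicates 1, 2 and 3 the share was 73.3%, 70.0% and 66.7%, beside 33.5%, 32.5% and 26.5%. Imp, Syp and lin-28 are not among the 30 and, as given above, had none in the conservative list, as had 7 of the 30. msi, which encodes the Musashi RNA-binding protein, had a recurrent summit 222 bp from its start site, with a signal of 956.4 at rank 63. elav, a pan-neuronal RNA-binding gene, had 3 conservative summits, the best with a signal of 838.6 at rank 83. mub and pAbp, an RNA-binding gene and the poly(A)-binding protein gene, had best signals of 577.2 and 321.8 in introns. The best sites of orb and shep, with signals of 480.3 and 339.9, were nearest to start sites of Cdc16 and Srp54k. The RNA-binding list had a median length of 19.8 kb, beside 2.17 kb for all protein-coding genes and 17.2 kb for the 29 coding genes of the temporal list. RNA-binding genes with a conservative summit had a median length of 20.2 kb and those without 19.3 kb. Of all genes at least 2.70 kb long, 53.2% had a conservative summit, and of those at least 36.4 kb long, 63.4%. The part of length in the shares was not tested. Both lists of genes were drawn up with earlier results of these data known, and no test of either was made.

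**Figure D5:**
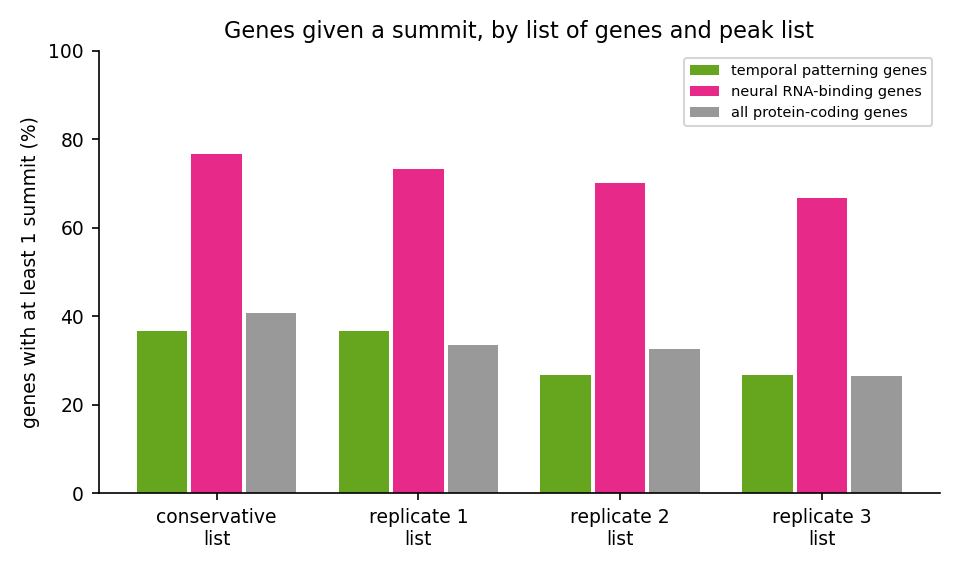
Percent of genes with at least 1 summit by the same rule (vertical axis, from 0) for 30 temporal patterning genes, 30 neural RNA-binding genes and all protein-coding genes, in each of the 4 lists. The temporal genes include the noncoding let-7 complex gene, which could be given a summit by its body and flank alone. The RNA-binding genes run from 66.7 to 76.7%, and all protein-coding genes from 26.5 to 40.8%.

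A set of 7 words was searched within 100 bp of each summit, on both strands, and 2 of them occurred at the recurrent chinmo sites. TAATTA was in 1 of the 5 recurrent windows, beside 13.1% of all conservative windows and 16% of recurrent intergenic ones. GAGAGA, the word of GAGA factor, was in 1 of the 5, the same window, beside 12.6% of all and 11.5% of recurrent intergenic windows. TATCGATA, a word of DREF and of insulator proteins, was in 0 of the 5, beside 5.34% of all and 1.64% of recurrent intergenic windows. CAGCTG and CACGTG, both E-box words, CAGGTAG, the word of Zelda, and GGTCACAC, a core promoter word, were in 0 of the 5. Their shares of all windows were 11.2%, 2.71%, 0.870% and 3.30%, and of recurrent intergenic windows 4.92%, 2.87%, 1.64% and 0.820%. The GC content of the 5 windows ran from 25.4% to 38.8% with a median of 35.8%, beside a median of 37.3% for intergenic windows, and the lowest belonged to the strongest site. A match is a description of the letters, and no match says only that the letters are not in the window.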

How the data were processed

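Dbx-eGFP ChIP-seq peaks of 3 embryo replicates in 1 group were taken as the authors deposited them on dm6. Aligner, peak caller and read depth: not given in the sources used here. In each list the authors deposited a signal value per peak (a signal, normalization not given), the −log10 of its IDR and a summit offset. Thresholded lists hold peaks at IDR 0.01, per the deposited values. The 4 series-level ranked lists each have 8 further columns of per-sample values, 32 in all, which were not used. The group labels came from the replicate numbers and the source descriptions. The age field of the labels could not be read as an embryo age, so the age is that of the strain description.

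Summits were given to genes with the Ensembl release 115 annotation, counting start sites of protein-coding genes and a flank of 2000 bp. Promoters were summits within 250 bp of a start site. Peaks were shared at an overlap of 1 bp. A control library was not analysed here. The build was checked by reading start codons from the genome, 99.83% of which were ATG. The assignment and word search were checked on simulated data. Genes named beyond the members were up to 6 of best recurrent rank in each list of genes, 5 of like pattern, and genes whose start site was nearest to a member summit. Eip75B, sbb, RYBP, the let-7 gene and the temporal genes given with 0 summits or as grh were named after their values were seen. The members, lists and tests were chosen with earlier results of these data known. Python 3.11.15, pandas 2.3.3, NumPy 2.4.6 and matplotlib 3.10.9 were used. The settings tried were other flanks, start-site sets, peak lists, IDR limits and overlaps. With 1 group and members chosen from the lists, no test was made. Intervals on counts could not be given because the lists hold no read counts.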

Additional observations from a re-analysis of the deposited data

How the results depend on the processing

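The 10 conservative summits of chinmo became 5 with start sites of every gene class, 5 with body and flank alone, 6 in the second series-level list, 5 at an IDR of at most 0.001 and 4 among the 500 peaks of highest signal. They were 13 in the longest list and 7 in the third series-level list. Syp went from 0 to 1 in the longest list and lin-28 from 0 to 1 with a flank of 5 kb. The 5685 protein-coding genes with a conservative summit became 3560 (25.5%) with no flank, 3336 (23.9%) by the nearest start site alone and 981 (7.03%) among the 500 strongest peaks, where temporal genes fell to 2 and RNA-binding genes to 4. The 69 other values stayed within 1.5 times the reported count, many of them counts of 0 at Imp, Syp and lin-28 that stayed 0. Leaving out any 1 replicate left 5 shared chinmo peaks, a count that this step can only keep or raise. Imp, Syp and lin-28 had no conservative peak, so their count of shared peaks was 0 in advance. The cause of these differences was not tested beyond what each setting removes or adds. No paired analysis was possible because there is 1 group. Read depth is unknown, so a gene without a summit may lie below detection.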

Other observations

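In the longest list chinmo gained 4 summits that the conservative list lacks, and lost the weakest one, 13155 bp upstream. The gained ones were an intron summit 5993 bp past the first start site with a signal of 93.45, an intergenic one 14575 bp upstream with a signal of 91.45, and a pair in the distal body, in a coding exon and an intron, with signals of 73.50 and 69.69. The intron summit 5993 bp past the start site was near the one that replicate 1 listed.

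Every 6-letter word was counted in the 5 recurrent chinmo windows after the sequences were seen. ATCAAA and AAAGAA were in all 5, on either strand. They were in 18.5% and 22.8% of all conservative windows and in 18.8% and 23.1% of intergenic ones. These words were picked from every 6-letter word for being in all 5, so that count cannot be set against the other shares. No test was made of either word.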
